A study of Mus musculus with 105 samples.

Results

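The WNT feedback genes and other beta-catenin target genes described here are 8 named genes out of 12966 measured in mouse liver. Axin2, Nkd1, Notum and Lgr5 act in the WNT pathway itself, Tbx3 is a transcription factor, and Lect2, Rgn and Lhpp are target genes with other functions. They were chosen by name with earlier results of these data known, as were the gene lists used below, so counts of calls among them are a description. All 8 were present in the table, each as 1 row.

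In WNT signalling a secreted WNT ligand binds a Frizzled receptor with Lrp5 or Lrp6, which stops a destruction complex from degrading beta-catenin. Beta-catenin then enters the nucleus, binds TCF/LEF factors and switches on target genes, several of which encode inhibitors of the same pathway. In liver, endothelial cells around the central vein release WNT ligands, and the pathway is known for the gene programme of the neighbouring, pericentral hepatocytes.

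All mice, those of the WT groups included, had received diethylnitrosamine (DEN), a chemical carcinogen that causes liver tumours. Sequencing group 1 held IKO livers (labelled Ikk KO), SKO livers (Shp2 KO, gene Ptpn11) and WT livers with n = 4 libraries per group. BKO livers (beta catenin KO, gene Ctnnb1) and MKO livers (cMet KO, gene Met) formed sequencing group 2 with their own WT livers, n = 3 per group. Each genotype was sampled at 1, 3, 5 and 8 months of age as labelled, and at 8 months tumours (T) and non-tumour liver (NT) were taken apart. The series' title places the losses in hepatocytes, and the labels name no Cre driver, strain or sex. They number biological replicates without saying that these are separate animals, so p-values measure the spread between libraries.

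Libraries of sequencing group 1 held 4676444 to 10863046 reads over all 12966 measured genes, and those of sequencing group 2 held 6650086 to 20231121. The summed level of 9 measured hepatocyte markers was between 528500 and 4527000 normalised reads in all 105 libraries, so the labelled tissue had its defining genes. As a check of the labels, Ptpn11 had 109 to 380.5 normalised reads in 16 non-tumour SKO libraries and 296 to 439 in 16 WT libraries, with SKO 3-month replicate 2 at the WT level. Met had 149 to 263 in 12 MKO and 190.5 to 277 in 12 WT libraries, and Ikbkb had 188 to 388 in 16 IKO and 279 to 485 in 16 WT libraries. Ctnnb1 had 102 to 161.5 in 12 BKO and 93.8 to 149 in 12 WT libraries. Reads from the 3′ end do not test an internal deletion in any of these genes. Knockout and WT ranges overlapped for each of them, so the counts are a weak check of single libraries. The Ctnnb1 counts do not check the BKO label.

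Levels below are normalised reads, that is, reads at the 3′ end scaled between libraries, and no level is compared between genes. Differences are log2 differences of the deposited, variance-stabilised values ± SE from limma, with p-values adjusted over all 12966 genes, and “called” means an adjusted p below 0.05. The transform compresses low values, so these differences understate changes of genes with few reads. In bulk liver, fewer cells of a type and less RNA per cell cannot be told apart. Groups described as apart or without overlap have to be read beside the share of all genes without overlap. Against WT this share was 27.9%, 21.1%, 27.1% and 23.6% for BKO non-tumour liver at 1, 3, 5 and 8 months. It was 12.1% for BKO tumours, 7.27% for IKO tumours, 21.1% for SKO at 1 month and 17.7% for MKO at 1 month. No such share was computed for tumours against non-tumour liver or for age.

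Promoter windows from RefSeq (GRCm38.p6), from 250 bases before to 50 after the gene start as RefSeq places it, were available for 3 of the 8 genes, Lect2, Axin2 and Nkd1. The Nkd1 window lies inside the gene as GENCODE places it and is not shown. The windows of Lect2 and Axin2 are shown because they were the ones left. The core of a TCF/LEF site was searched as the 6 letters CTTTGA on either strand, and matches are in capitals. Lect2 lies at chr13:56548489-56548788 (minus strand) and Axin2 at chr11:108920099-108920398 (plus strand).
Lect2: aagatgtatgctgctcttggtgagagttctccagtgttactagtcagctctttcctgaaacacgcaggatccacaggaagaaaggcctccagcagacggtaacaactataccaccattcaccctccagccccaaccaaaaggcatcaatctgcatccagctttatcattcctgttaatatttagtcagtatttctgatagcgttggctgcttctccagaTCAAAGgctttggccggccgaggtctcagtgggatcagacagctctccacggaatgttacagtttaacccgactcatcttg
Axin2: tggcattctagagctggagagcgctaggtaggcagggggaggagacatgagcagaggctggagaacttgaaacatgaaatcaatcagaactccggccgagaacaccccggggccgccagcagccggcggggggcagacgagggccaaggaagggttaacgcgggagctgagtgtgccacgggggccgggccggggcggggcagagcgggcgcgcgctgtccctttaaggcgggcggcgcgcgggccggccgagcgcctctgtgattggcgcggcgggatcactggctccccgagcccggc
The Lect2 window held 1 match, read on the opposite strand, that begins 31 bases before the RefSeq gene start. The Axin2 window held 0. The motif occurred in 12.2% of 13034 windows of genes in the table and in 16% of 32851 windows in all, and a match is given as a description only.

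The comparison of BKO with WT livers asks what the beta-catenin targets did in livers labelled as lacking beta-catenin. Over the 4 non-tumour stages, 7 of the 8 genes were called and all 7 were lower in BKO livers, while 19.6% of all genes were called in either direction. Their median log2 difference was −2.14, against 0.01 over all genes. Of the feedback genes, Axin2 fell by 0.57 ± 0.10 (adjusted p = 5.27e-05), Notum by 1.13 ± 0.12 (adjusted p = 4.28e-09) and Lgr5 by 1.59 ± 0.17 (adjusted p = 9.36e-09) on the log2 scale. Lhpp fell by 2.698 ± 0.24 (adjusted p = 1.34e-10). Nkd1 was not called, with a log2 difference of −0.22 ± 0.10 (adjusted p = 0.144).

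**Figure D1:**
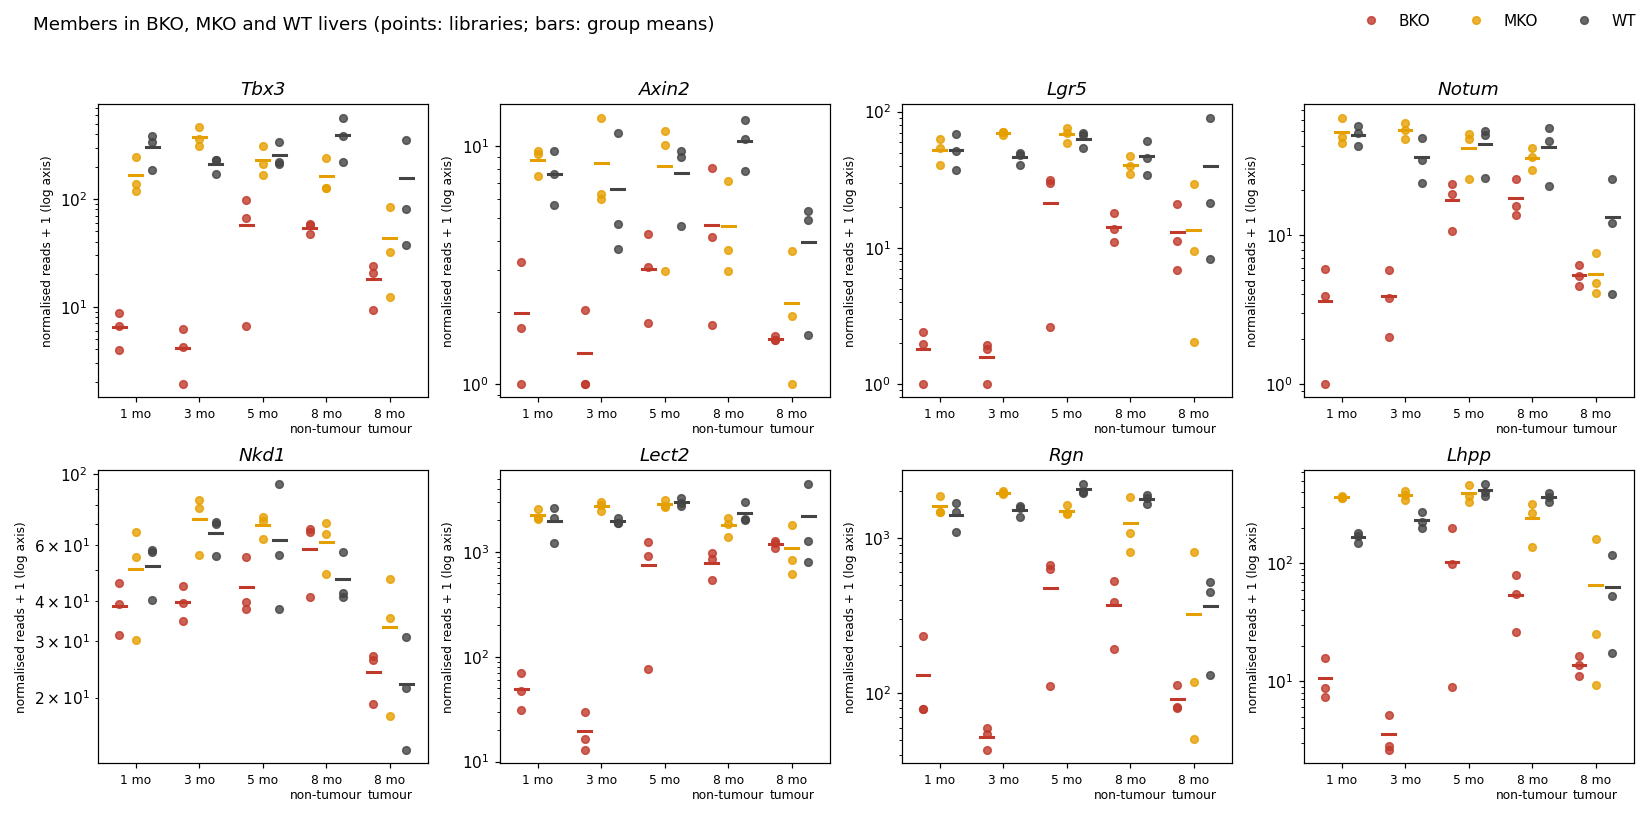
Normalised reads + 1 (log axis) of the 8 genes in BKO, MKO and WT libraries of sequencing group 2, by stage; points are libraries and bars group means. Lect2 was between 11.97 and 68.8 normalised reads in the 6 BKO libraries of 1 and 3 months and between 75.1 and 1247 at 5 months, where replicate 2 is the lowest.

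Axin2, a scaffold of the destruction complex and a widely used readout of the pathway, was scarce in every group. At 1 month it had 0, 2.25 and 0.709 normalised reads in BKO livers, against 4.66, 8.51 and 6.66 in WT livers. These were 3 reads in all in the BKO libraries and 30 in the WT libraries. At 3 months it had 0, 1.05 and 0 in BKO livers, against 10.4, 3.70 and 2.68 in WT livers. The groups did not overlap at either stage, and Axin2 was called at both, at −0.66 ± 0.19 (adjusted p = 0.0426) and −0.71 ± 0.19 (adjusted p = 0.048). Leaving out any of BKO replicate 1, BKO replicate 3, WT replicate 2 or WT replicate 3 ended the 1-month call (adjusted p 0.0886 to 0.213), and at 3 months every library but BKO replicate 2 did so (0.0512 to 0.278).

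At 5 months Axin2 had 2.10, 0.799 and 3.25 normalised reads in BKO livers, against 8.55, 3.59 and 7.98 in WT livers. In 8-month liver it had 3.16, 7.09 and 0.773 in BKO non-tumour liver, against 11.9, 9.73 and 6.84 in WT non-tumour liver. BKO replicate 2 then lay within the WT range, and neither stage was called (adjusted p = 0.18 and 0.151).

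Nkd1 encodes an inhibitor that binds Dishevelled, the protein that relays the receptor signal. Its levels were 44.8, 38.2 and 30.5 normalised reads in 1-month BKO livers, against 39.3, 55.9 and 57.0 in WT livers. Its 8-month values were 65.1, 40.2 and 66.5 in BKO non-tumour liver, against 56.1, 41.3 and 40.2 in WT non-tumour liver. The groups overlapped at both ages, and the log2 difference was −0.28 ± 0.21 at 1 month and 0.21 ± 0.21 at 8 months. The largest difference, −0.50 ± 0.21 at 3 months, was not called (adjusted p = 0.289). At that stage all 8 genes, Nkd1 included, were without overlap, as were 21.1% of all genes. Its 95% interval over the 4 stages was −0.43 to −0.0048.

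Notum, a secreted enzyme that inactivates WNT ligands by removing their lipid, was nearly absent from young BKO livers. At 1 month it had 2.92, 0 and 4.96 normalised reads in BKO livers, against 38.6, 52.9 and 47.3 in WT livers. The 3-month values were 2.76, 1.05 and 4.87 in BKO livers, against 44.3, 21.5 and 31.2 in WT livers. The mean level in BKO livers was 0.0568 times that in WT livers at 1 month and 0.0895 times at 3 months, and the groups were apart at both. The log2 differences were −1.83 ± 0.23 (adjusted p = 3.91e-06) and −1.36 ± 0.23 (adjusted p = 0.00031). At 5 months Notum had 17.9, 9.59 and 21.1 in BKO livers, against 49.6, 23.4 and 46.5 in WT livers. In 8-month liver it had 12.6, 22.9 and 14.7 in BKO non-tumour liver, against 20.4, 42.2 and 51.3 in WT non-tumour liver. Neither later stage was called, at −0.71 ± 0.23 (adjusted p = 0.056) and −0.62 ± 0.23 (adjusted p = 0.105).

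Lgr5, a receptor for R-spondins that strengthens WNT signalling, was at the limit of detection in young BKO livers. Its levels at 1 month were 0.973, 0 and 1.42 normalised reads in BKO livers, against 36.0, 67.5 and 50.3 in WT livers. At 3 months they were 0.921, 0 and 0.811 in BKO livers, against 39.4, 48.9 and 47.3 in WT livers. The BKO libraries held 3 reads in all at 1 month and 2 at 3 months, and the log2 differences were −2.13 ± 0.33 (adjusted p = 0.000115) and −2.06 ± 0.33 (adjusted p = 0.000156). At 5 months Lgr5 had 30.5, 1.60 and 28.7 in BKO livers, against 53.0, 68.2 and 65.8 in WT livers, so that BKO replicates 1 and 3 lay above every younger BKO library and replicate 2 was close to them. The difference was −1.18 ± 0.33 (adjusted p = 0.0285). Its 8-month values were 17.1, 12.6 and 10.05 in BKO non-tumour liver, against 60.3, 44.6 and 33.3 in WT non-tumour liver, without overlap but not called (−0.97 ± 0.33, adjusted p = 0.0792).

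Tbx3, a T-box transcription factor of the hepatoblast and of pericentral hepatocytes, had 2.92, 5.62 and 7.80 normalised reads in 1-month BKO livers, against 186, 382 and 339 in WT livers. At 3 months it had 0.921, 5.26 and 3.24 in BKO livers, against 232, 170 and 232 in WT livers. The WT mean was 55.5 times the BKO mean at 1 month and 67.2 times at 3 months, and the log2 differences were −3.61 ± 0.47 (adjusted p = 5.92e-06) and −3.41 ± 0.47 (adjusted p = 8.61e-06). At 5 months Tbx3 had 66.2, 5.60 and 96.4 in BKO livers, against 219, 211 and 336 in WT livers. In 8-month liver it had 46.2, 56.0 and 58.0 in BKO non-tumour liver, against 568.5, 382 and 220 in WT non-tumour liver. BKO stayed below WT at both ages, and Tbx3 was called at both, at −2.05 ± 0.47 (adjusted p = 0.00718) and −2.31 ± 0.47 (adjusted p = 0.00328).

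Lect2, which encodes a protein that hepatocytes secrete into blood, had the largest differences of the 8 genes at 1, 3 and 5 months on the log2 scale of the deposited values. In normalised reads the ratio of the WT to the BKO mean was larger for other members, among them Tbx3 at 1 month and Tbx3, Rgn and Lhpp at 5 months. At 1 month it had 30.2, 46.0 and 68.8 normalised reads in BKO livers, against 1216, 2086 and 2624 in WT livers. At 3 months it had 11.97, 28.4 and 15.4 in BKO livers, against 1877, 1887 and 2109 in WT livers. The WT mean was 40.9 times the BKO mean at 1 month and 105.2 times at 3 months, and the log2 differences were −4.72 ± 0.52 (adjusted p = 5.68e-07) and −5.57 ± 0.52 (adjusted p = 1.69e-08). At 5 months Lect2 had 922, 75.1 and 1247 in BKO livers, against 2745, 2906 and 3257 in WT livers. Its 8-month values were 979, 850.3 and 533.5 in BKO non-tumour liver, against 2999, 2071 and 2006 in WT non-tumour liver. The groups remained apart, yet the WT mean was now 3.97 and 2.99 times the BKO mean. The difference was −2.59 ± 0.52 at 5 months (adjusted p = 0.0031) and −1.57 ± 0.52 at 8 months (adjusted p = 0.0724).

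Rgn encodes regucalcin, a gluconolactonase that in mice takes part in vitamin C synthesis. Its levels at 1 month were 78.8, 78.6 and 231 normalised reads in BKO livers, against 1085, 1461 and 1659 in WT livers. At 3 months they were 42.4, 58.9 and 53.5 in BKO livers, against 1357, 1599 and 1541 in WT livers. BKO lay below WT without overlap, by −3.31 ± 0.54 (adjusted p = 0.00017) and −4.30 ± 0.54 (adjusted p = 3.54e-06). At 5 months Rgn had 671.5, 111 and 632.5 in BKO livers, against 1926, 2224 and 1981 in WT livers. In 8-month liver it had 192, 522.5 and 386 in BKO non-tumour liver, against 1882, 1810 and 1644 in WT non-tumour liver. Both later differences were called, at −2.37 ± 0.54 (adjusted p = 0.00704) and −2.29 ± 0.54 (adjusted p = 0.00999), although the 8-month call was lost without BKO replicate 1 (−1.92, adjusted p = 0.0787).

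Lhpp encodes a phosphatase of histidine that has been described as a suppressor of liver tumours in mice. At 1 month it had 7.78, 14.6 and 6.38 normalised reads in BKO livers, against 146.5, 179 and 169 in WT livers. At 3 months it had 1.84, 4.21 and 1.62 in BKO livers, against 224, 200 and 272 in WT livers. The mean level in BKO livers was 0.0582 and 0.0110 times that in WT livers, with log2 differences of −2.61 ± 0.47 (adjusted p = 0.000621) and −3.58 ± 0.47 (adjusted p = 6.19e-06). At 5 months Lhpp had 97.7, 7.99 and 197 in BKO livers, against 405, 473 and 372 in WT livers. Its 8-month values were 25.3, 78.8 and 54.1 in BKO non-tumour liver, against 330, 391.5 and 365 in WT non-tumour liver. It was called at both ages, at −2.23 ± 0.47 (adjusted p = 0.0042) and −2.37 ± 0.47 (adjusted p = 0.00308).

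By stage, 7 of the 8 genes were called lower in BKO livers at 1 month and 7 at 3 months, where 4.37% and 1.54% of all genes were called. Limma-voom called 6 at 1 month, without Axin2 (adjusted p = 0.0802), and 3 at 3 months, where Lhpp (adjusted p = 0.0694), Tbx3 (0.0703), Lgr5 (0.0841) and Axin2 (0.166) missed the threshold with the same sign. The count was 5 at 5 months and 3 in 8-month non-tumour liver, against backgrounds of 6.44% and 4.91%. Whether the difference changed with stage was tested as an interaction, which called 0.663% of all genes and, of the 8, Lect2 (F = 12.5, adjusted p = 0.0137). Notum had the next largest F (6.14, adjusted p = 0.101). For the other 6 the adjusted p ran from 0.291 to 0.848, so a change of the difference with age was not shown for them. With library weights the interaction called 3 of the 8.

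BKO 5-month replicate 2 stood apart. It was the lowest of the 3 BKO 5-month libraries for all 8 genes, and for 17 of 25 further pericentral target genes. Without it, 2 of the 8 genes were called at 5 months, Lect2 and Lhpp, and the differences of Tbx3, Lgr5 and Rgn were −1.38 (adjusted p = 0.0629), −0.70 (adjusted p = 0.205) and −1.60 (adjusted p = 0.06). The Lgr5 call was also lost without any 1 of the 3 WT libraries (adjusted p 0.0633 to 0.0843), and without WT replicate 2 Notum was called (−0.92, adjusted p = 0.0325). With the spread estimated from the 5-month BKO and WT libraries alone, 0 of the 8 were called at 5 months.

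**Figure D2:**
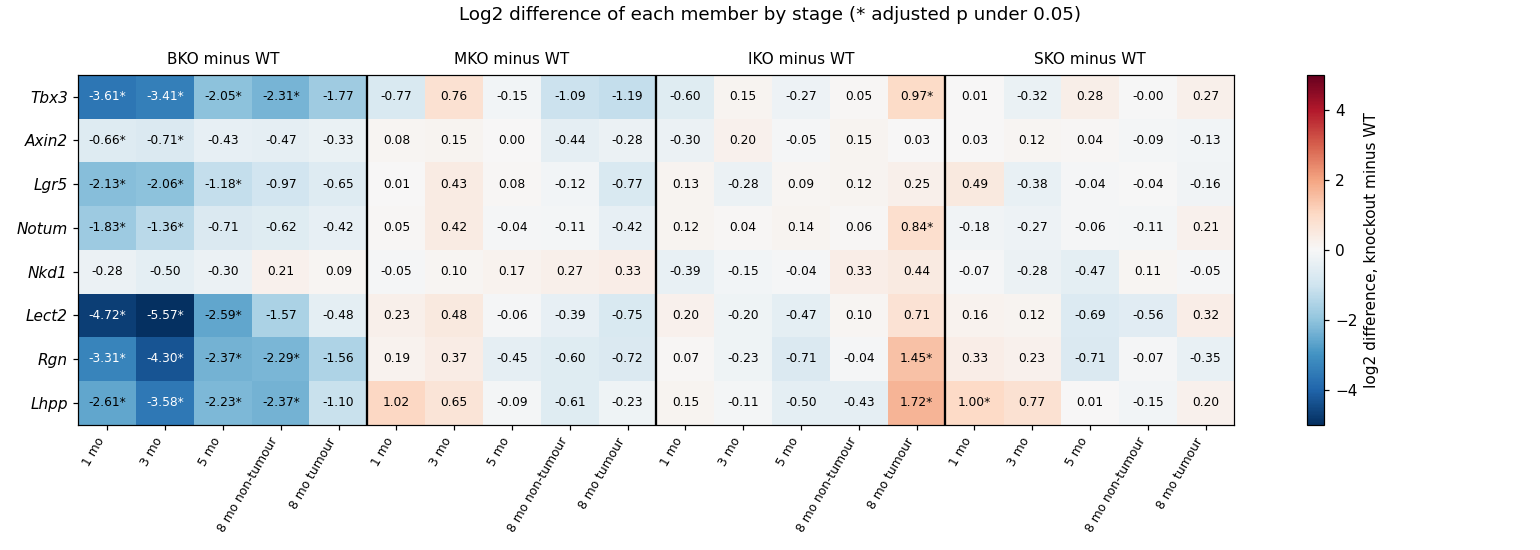
Log2 differences, knockout minus WT, of the 8 genes (down) at 5 stages for each knockout (across), with a star where the adjusted p is below 0.05. In the BKO block 7 of 8 genes carry a star at 1 and 3 months and 0 in tumours, while in the IKO block stars appear in tumours for 4 genes.

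Pathway genes other than the 8 were called in both directions. Against the 19.6% of all genes called in this comparison, the shares of ligand and receptor genes called, 3 of 10 and 3 of 13, were near the background. Of 11 measured inhibitors and feedback genes other than the 8, 3 were lower and 4 higher in BKO non-tumour liver (median log2 difference 0.11). Among the lower ones were Rnf43 (−0.92 ± 0.13, adjusted p = 3.74e-06) and Znrf3 (−0.62 ± 0.09, adjusted p = 4.75e-06), the ubiquitin ligases that remove Frizzled receptors. Bambi, a decoy receptor of the BMP pathway, was among the higher ones (0.51 ± 0.09, adjusted p = 8.88e-05). Of 10 measured ligand genes and genes of their release, 3 were higher, namely Wnt5a (0.49 ± 0.08, adjusted p = 2.3e-05), Wls, which carries WNT proteins to the surface (0.37 ± 0.09, adjusted p = 0.0021), and Wnt4 (0.34 ± 0.11, adjusted p = 0.0235). At 1 month alone the Wnt4 difference was negative and not called (−0.43 ± 0.21, adjusted p = 0.283).

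Of 13 receptor genes, 3 were lower and 0 higher, namely Fzd8 (−0.50 ± 0.16, adjusted p = 0.026) and the co-receptors Lrp5 (−0.30 ± 0.10, adjusted p = 0.0272) and Lrp6 (−0.20 ± 0.07, adjusted p = 0.0411). Among 16 TCF/LEF factors and coactivators, 5 were lower and 2 higher. Bcl9l, which bridges beta-catenin to its coactivators, was lower (−0.66 ± 0.11, adjusted p = 4.39e-05), as was the target and regulator Sp5 (−0.63 ± 0.11, adjusted p = 9.24e-05). Ctnnbip1, an inhibitor that binds beta-catenin, was higher (0.75 ± 0.11, adjusted p = 4.07e-06). Of 12 genes known as WNT targets in other tissues, 3 were higher and 1 lower, with Sox9 at 1.317 ± 0.16 (adjusted p = 9.45e-08). Sox9 also marks bile duct cells.

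**Figure D3:**
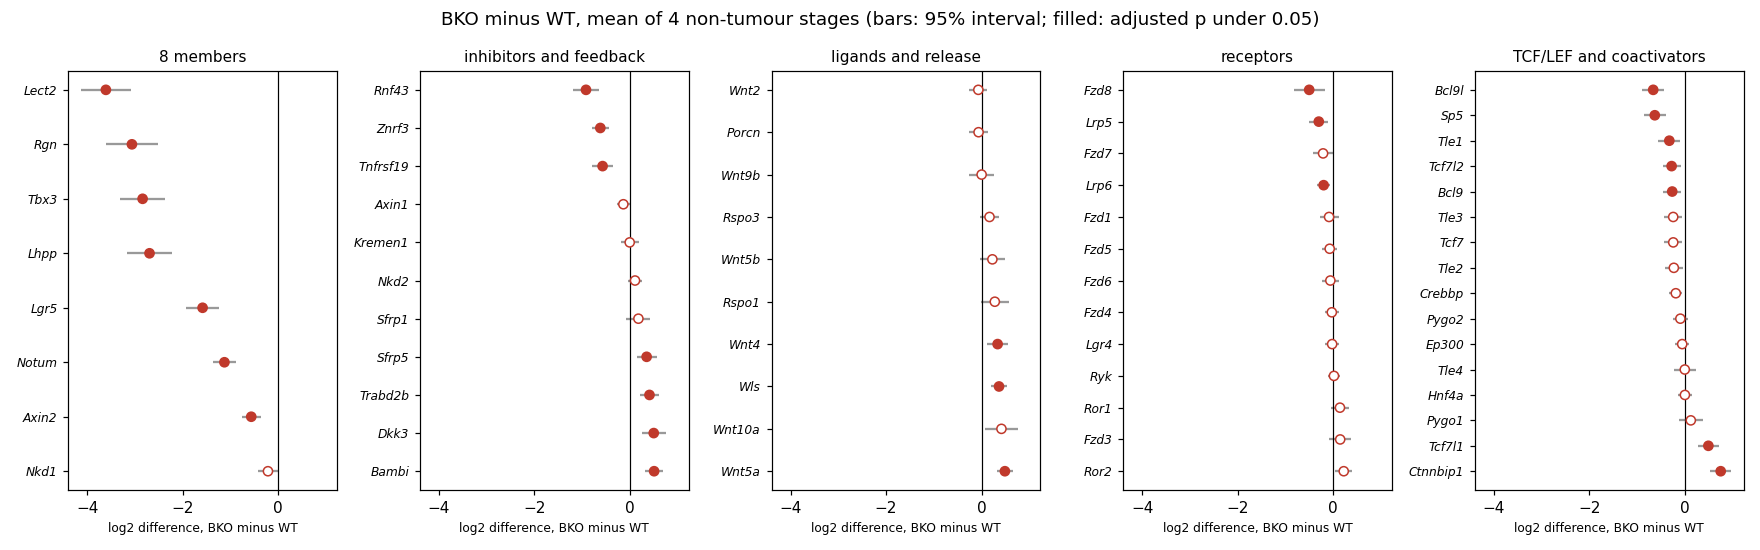
Log2 differences, BKO minus WT over the 4 non-tumour stages, of the 8 genes and of 4 pathway lists, with 95% intervals and filled points where the adjusted p is below 0.05. The 8 genes reach −3.61 for Lect2, while the pathway lists stay between −0.92 for Rnf43 and 0.75 for Ctnnbip1.

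The 25 further pericentral target genes included 20 that were lower and 0 that were higher in BKO livers (median −1.64). By a rule on the 20 knockout-minus-WT stage differences of all 4 knockouts, the genes most like each of 6 members were named by their root mean square distance, a description over differences that share WT libraries. Lhpp was nearest to Oat, ornithine aminotransferase (0.29), Glul, glutamine synthetase (0.41), and Nxpe2 (0.44). Rgn was nearest to Gulo, the last enzyme of vitamin C synthesis in mice (0.44), then Lhpp (0.46) and Nxpe2 (0.48). Lect2 was nearest to Gulo (0.53), Rgn (0.59) and the cytochrome Cyp2e1 (0.59), and Tbx3 to Nxpe2 (0.49), Rgn (0.52) and Gulo (0.55). Notum was nearest to the glycerol channel Aqp9 (0.23), Rnf43 (0.23) and Hsd3b7 of bile acid synthesis (0.28). Lgr5 was nearest to Aqp9 (0.32), Notum (0.33) and the ammonium transporter Rhbg (0.36). Axin2 and Nkd1 fell short of the rule's 0.5, with root mean squares of 0.31 and 0.27 over the 20 differences. Axin2 had few reads and the transform compresses low values, so its root mean square understates its change.

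Markers of other liver cells also differed in BKO livers. Of 15 stellate cell and fibroblast markers 12 were higher, and their summed level was 5453 to 8039 normalised reads in 12 BKO non-tumour libraries, against 3191 to 5809 in 12 WT libraries. Of 7 cholangiocyte markers 5 were higher, with sums of 436 to 1099 in BKO and 279 to 478 in WT libraries, and of 12 macrophage markers 5 were higher, with sums of 4845 to 8835 in BKO and 3045 to 9040 in WT libraries. Of 20 endothelial markers 2 were higher, and their sums were 3036 to 6094 in BKO and 3832 to 4857 in WT libraries. Of 9 hepatocyte markers 3 were higher and 0 lower, with sums of 1227000 to 2263000 in BKO and 1110000 to 1779000 in WT libraries. No marker of these lists was at 0 in every library of a group of sequencing group 2. The part of these cell types in the differences of the 8 genes was not tested.

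In tumours of 8 months the 8 genes were not called between BKO and WT (0 of 8, 3 at an unadjusted p below 0.05, 0 with limma-voom), where 0.548% of all genes were called. Tbx3 had 8.25, 19.8 and 23.1 normalised reads in BKO tumours, against 353, 80.3 and 36.4 in WT tumours. The groups were apart, and the difference was −1.77 ± 0.47 (adjusted p = 0.0661), which passed without WT tumour replicate 3 (−2.34, adjusted p = 0.0178). Rgn had 79.6, 80.6 and 111 in BKO tumours, against 446.5, 517 and 130 in WT tumours. Its groups were apart too, at −1.56 ± 0.54 (adjusted p = 0.22). Lect2 had 1209, 1276 and 1090 in BKO tumours, against 4465, 1281 and 805 in WT tumours, with the BKO tumours inside the WT range (−0.48 ± 0.52, adjusted p = 0.81).

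Tumours were also compared with non-tumour liver of the same genotype at 8 months. In BKO mice 3 of the 8 genes were called, all lower in tumours, while 14.7% of all genes were called. These were Nkd1 (−0.80 ± 0.21, adjusted p = 0.00796), Notum (−0.69 ± 0.23, adjusted p = 0.0372) and Rgn (−1.66 ± 0.54, adjusted p = 0.0319). Same-numbered BKO tumour and non-tumour libraries deviated together, and with the replicate number as a block, fitted on these 2 groups, 5 were called, with Tbx3 (−0.996, adjusted p = 0.0155) and Lhpp (−1.08, adjusted p = 0.0404) added. Without the block the same 2 groups alone gave 0 calls. Leaving out 1 library gave 0 calls for non-tumour replicate 3, 1 for non-tumour replicate 2 and for tumour replicates 1 and 2, and 2 for tumour replicate 3. Lect2 had 1209, 1276 and 1090 in BKO tumours, against 979, 850.3 and 533.5 in BKO non-tumour liver. It was the 1 gene of the 8 with a positive difference, without overlap of the libraries but not called (0.62 ± 0.52, adjusted p = 0.479).

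Cell markers moved in the same comparison. Of 9 hepatocyte markers 4 were higher and 0 lower, with sums of 3237000 to 3628000 normalised reads in BKO tumours, against 1523000 to 2013000 in BKO non-tumour liver. Of 15 stellate cell markers 2 were higher and 4 lower, with sums of 5520 to 5875 in tumours and 6445 to 7013 in non-tumour liver. Of 7 T, NK and B cell markers 1 was higher, with sums of 2653 to 21910 in tumours and 1833 to 6901 in non-tumour liver. Of 12 macrophage markers 1 was lower, with sums of 4396 to 5473 in tumours and 5699 to 6720 in non-tumour liver. Their part in the differences of the 8 genes was not tested.

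In WT mice of sequencing group 1, 7 of the 8 genes were called lower in tumours than in non-tumour liver, where 42.1% of all genes were called. Rgn had 303, 222, 214 and 570.2 normalised reads in tumours, against 2917, 3405, 2740 and 1907 in non-tumour liver, a difference of −3.03 ± 0.24 (adjusted p = 9.98e-15). Lhpp had 56.0, 14.2, 21.4 and 62.4 in tumours, against 227, 377, 325 and 231 in non-tumour liver (−2.39 ± 0.28, adjusted p = 5.63e-10). Both genes were lower in every tumour than in any non-tumour library. Tbx3 differed by −2.26 ± 0.25 (adjusted p = 2.02e-10), Lect2 by −1.40 ± 0.23 (adjusted p = 1.2e-06), Notum by −0.93 ± 0.20 (adjusted p = 0.000147), Lgr5 by −0.85 ± 0.23 (adjusted p = 0.00248) and Nkd1 by −0.79 ± 0.21 (adjusted p = 0.00229). Axin2 was not called (−0.35 ± 0.17, adjusted p = 0.0921), except without non-tumour replicate 2 (adjusted p = 0.0385).

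In these WT tumours 21 of 25 further pericentral target genes were lower than in non-tumour liver and 1 was higher (median −2.09). Among the pathway lists, 4 of 10 ligand genes and 4 of 11 inhibitors were called, near the 42.1% of all genes. Of the ligand genes and genes of their release 3 were lower and 1 higher, with Rspo3, an R-spondin that is a ligand of Lgr5, at −1.15 ± 0.18 (adjusted p = 1.06e-06) and Wnt5a at 0.81 ± 0.20 (adjusted p = 0.000663). Of the inhibitors and feedback genes 2 were higher and 2 lower, with Axin1, the other Axin scaffold of the destruction complex, at 1.08 ± 0.14 (adjusted p = 5.9e-09). Bcl9l was at −1.55 ± 0.17 (adjusted p = 6.59e-11). Of 9 hepatocyte markers 6 were higher and 1 lower, and their summed level was 2282000 to 3080000 normalised reads in tumours, against 622400 to 1135000 in non-tumour liver. Of 7 cholangiocyte markers 4 were higher, with sums of 1348 to 4388 in tumours and 310.1 to 783 in non-tumour liver. Of 15 stellate cell markers 9 were higher and 3 lower, with sums of 3540 to 6549 in tumours and 2661 to 3159 in non-tumour liver. The part of these cells in the tumour differences of the 8 genes was not tested.

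In WT mice of sequencing group 2, 6 were called lower in tumours, where 27.1% of all genes were called. Rgn differed by −2.39 ± 0.54 (adjusted p = 0.000912) and Lhpp by −2.35 ± 0.47 (adjusted p = 0.000272), followed by Tbx3, Notum, Nkd1 and Axin2. Lgr5 had 89.2, 20.4 and 7.28 normalised reads in these tumours, against 60.3, 44.6 and 33.3 in non-tumour liver. Tumour replicate 1 was above and the others below the non-tumour range, and Lgr5 was not called (−0.42 ± 0.33, adjusted p = 0.38). WT tumour replicate 3 was the lowest of its group for all 8 genes. Without it 2 of the 8 were called, Rgn and Lhpp, without WT non-tumour replicate 1 there were 3, without tumour replicate 1 there were 7 with Lgr5 (−0.98, adjusted p = 0.0219), and with the spread from these 2 groups alone there were 2. Hepatocyte markers were higher for 5 of 9, with sums of 3042000 to 4527000 in these tumours and 1110000 to 1379000 in non-tumour liver. Of 7 cholangiocyte markers 2 were higher, with sums of 845 to 859 in tumours and 343 to 388 in non-tumour liver. Their part was not tested.

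MKO tumours were lower than MKO non-tumour liver for 6 of the 8, where 17.3% of all genes were called. Rgn had 49.5, 116 and 804 normalised reads in MKO tumours, against 1079, 804 and 1821 in MKO non-tumour liver (−2.52 ± 0.54, adjusted p = 0.0013). Lhpp had 8.25, 24.3 and 160 in MKO tumours, against 266, 137 and 318.5 in MKO non-tumour liver (−1.97 ± 0.47, adjusted p = 0.00363). The 3 tumours spread widely, with replicate 1 the lowest and replicate 3 the highest of the group for all 8 genes, and for both genes replicate 3 overlapped the non-tumour range. Without MKO tumour replicate 1, 2 of the 8 were called, without non-tumour replicate 1 there were 3, without tumour replicate 2 there were 4, and with these 2 groups alone 1. Among 9 hepatocyte markers 6 were higher, with sums of 2575000 to 2891000 in MKO tumours and 977800 to 1911000 in MKO non-tumour liver. Of 15 stellate cell markers 7 were higher and 1 lower, with sums of 6129 to 11170 in tumours and 3725 to 6838 in non-tumour liver. Of 7 cholangiocyte markers 2 were higher, with sums of 733 to 3337 in tumours and 372 to 872 in non-tumour liver. Their part was not tested.

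SKO tumours were lower than SKO non-tumour liver for 6 of the 8, where 39.7% of all genes were called. Rgn differed by −3.32 ± 0.24 (adjusted p = 6.7e-16), Lhpp by −2.04 ± 0.28 (adjusted p = 3.52e-08) and Tbx3 by −1.98 ± 0.25 (adjusted p = 6.92e-09). Lect2 (−0.52 ± 0.23, adjusted p = 0.062) and Axin2 (−0.39 ± 0.17, adjusted p = 0.0594) were not called, though each passed with some libraries left out, Lect2 without non-tumour replicate 1 or tumour replicate 3 or 4 and Axin2 without non-tumour replicate 2 or tumour replicate 1 or 4. The 9 hepatocyte markers included 7 higher and 1 lower, with sums of 1437000 to 3098000 in SKO tumours and 547000 to 809800 in SKO non-tumour liver. Of 15 stellate cell markers 8 were higher and 3 lower, with sums of 4114 to 9711 in tumours and 3010 to 4434 in non-tumour liver. Of 12 macrophage markers 4 were lower, with sums of 4782 to 5989 in tumours and 7925 to 8705 in non-tumour liver. The part of these cells was not tested.

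IKO tumours had more of several of these transcripts than WT tumours. Of the 8 genes 4 were called higher in IKO tumours than in WT tumours and 0 lower, where 3.6% of all genes were called. Lhpp had 188.5, 113.5, 175 and 208 normalised reads in IKO tumours, against 56.0, 14.2, 21.4 and 62.4 in WT tumours. Rgn had 1009, 595, 973 and 1008 in IKO tumours, against 303, 222, 214 and 570.2 in WT tumours. The groups did not overlap for either gene, and the differences were 1.72 ± 0.28 (adjusted p = 6.71e-05) and 1.45 ± 0.24 (adjusted p = 9.62e-05).

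Notum had 19.5, 16.2, 34.5 and 34.7 normalised reads in IKO tumours, against 6.22, 7.11, 2.52 and 12.2 in WT tumours, again without overlap (0.84 ± 0.20, adjusted p = 0.00776). Tbx3 had 175.5, 54.1, 153 and 101.5 in IKO tumours, against 28.0, 51.8, 45.3 and 62.4 in WT tumours, where IKO replicate 2 fell within the WT range (0.97 ± 0.25, adjusted p = 0.0185). Lect2 had 1630, 1424, 2180 and 1950 in IKO tumours, against 823, 857, 981 and 1898 in WT tumours. WT replicate 4 overlapped the IKO tumours, and Lect2 was not called (0.71 ± 0.23, adjusted p = 0.063). Lect2 was called without that library (0.98, adjusted p = 0.00465) and also without IKO replicate 2 (0.81, adjusted p = 0.0382). The Tbx3 call was lost without IKO replicate 1 or 3 or WT replicate 1 or 3 (adjusted p 0.0568 to 0.119) and the Notum call without IKO replicate 4 or WT replicate 3 (0.0523 and 0.0709). With these 2 groups alone 1 gene was called, Lhpp.

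**Figure D4:**
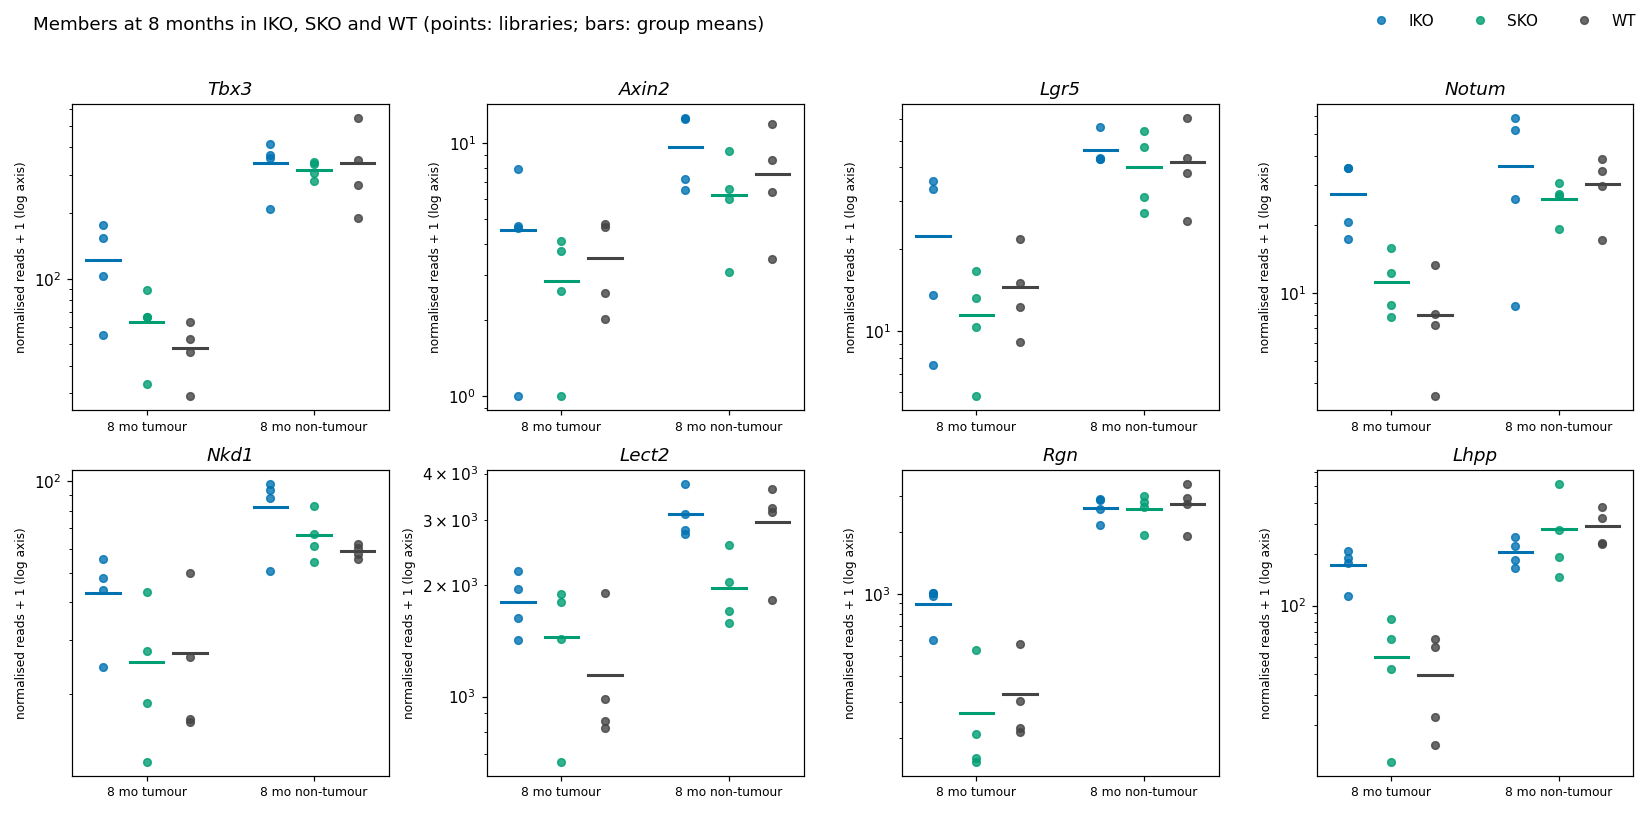
Normalised reads + 1 (log axis) of the 8 genes in tumours and non-tumour liver of 8-month IKO, SKO and WT mice of sequencing group 1; points are libraries and bars group means. Lhpp averages 171 in IKO tumours, against 49.3 in SKO and 38.5 in WT tumours.

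IKO tumours had 6 of the 8 genes called lower than IKO non-tumour liver, where 33.3% of all genes were called. Rgn differed by −1.54 ± 0.24 (adjusted p = 1.29e-06) and Tbx3 by −1.35 ± 0.25 (adjusted p = 3.4e-05). Lhpp had 188.5, 113.5, 175 and 208 normalised reads in IKO tumours, against 223, 183, 165.5 and 249.5 in IKO non-tumour liver, and the libraries overlapped (−0.24 ± 0.28, adjusted p = 0.539). Notum had 19.5, 16.2, 34.5 and 34.7 in IKO tumours, against 7.75, 57.7, 24.8 and 51.2 in IKO non-tumour liver, with overlap as well (−0.15 ± 0.20, adjusted p = 0.599). The calls of Axin2, Lgr5 or Nkd1 were lost without non-tumour replicate 2 or 4 (5 genes left) or tumour replicate 1 or 2 (4 left). Of 9 hepatocyte markers 6 were higher and 1 lower, with sums of 1880000 to 2334000 in IKO tumours and 763000 to 1203000 in IKO non-tumour liver. Of 7 cholangiocyte markers 3 were higher, with sums of 784 to 4031 in tumours and 393.5 to 647 in non-tumour liver, and the part of these cells was not tested. The difference between the tumour effects of IKO and WT mice was tested directly and called 0.123% of all genes, among them Lhpp (2.15 ± 0.39, adjusted p = 0.00747) and Rgn (1.49 ± 0.34, adjusted p = 0.0441). The Rgn call was lost when any of 12 of the 16 libraries was left out (adjusted p 0.0563 to 0.173), and the Lhpp call in none.

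In the same tumours 14 of 25 further pericentral target genes were higher in IKO than in WT and 0 lower (median 1.11), with Cyp2e1 at 1.99 ± 0.32 (adjusted p = 6.9e-05) and Glul at 1.85 ± 0.31 (adjusted p = 0.000126). Of 11 inhibitors and feedback genes, 10 ligand genes, 13 receptor genes and 16 TCF/LEF factors and coactivators, 0 were called in limma, and 0, 2, 2 and 4 of them had an unadjusted p below 0.05. Of 12 genes known as WNT targets in other tissues 1 was called, Zfp703, at 0.57 ± 0.16 (adjusted p = 0.032), and 1 higher and 3 lower had an unadjusted p below 0.05. Of 9 hepatocyte markers 1 was lower, with sums of 1880000 to 2334000 normalised reads in IKO and 2282000 to 3080000 in WT tumours. Of 15 stellate cell markers 1 was called higher, and 3 higher and 5 lower had an unadjusted p below 0.05, with sums of 2855 to 4567 in IKO and 3540 to 6549 in WT tumours. Of 7 cholangiocyte markers 1 was called lower, and 4, all lower, had an unadjusted p below 0.05, with sums of 784 to 4031 in IKO and 1348 to 4388 in WT tumours. Of 20 endothelial and 12 macrophage markers 0 were called in limma, with 4 and 3 at an unadjusted p below 0.05. Of 5 erythroid markers 1 was higher, Alas2 of haem synthesis (1.77 ± 0.46, adjusted p = 0.0169), and their sums did not overlap, at 4609 to 6414 in IKO tumours and 3036 to 4209 in WT tumours. Of 7 T, NK and B cell markers 0 were called, with 1 at an unadjusted p below 0.05. The part of these cells in the differences was not tested.

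In non-tumour liver of IKO mice 0 of the 8 genes were called over the 4 stages, where 9.04% of all genes were called, and 0 had an unadjusted p below 0.05. By stage the count was 0 at 1 month (background 9.17%), 3 months (0.201%), 5 months (1.45%) and 8 months (0.201%), with 1, 0, 2 and 0 genes at an unadjusted p below 0.05. The interaction of IKO with stage called 0 of the 8 as well (background 0.0694%). Limma-voom called 0 in each of these 6 comparisons. The 2 genes at 5 months were Rgn, with a difference of −0.71 ± 0.24 (adjusted p = 0.113), and Lect2, with −0.47 ± 0.23 (adjusted p = 0.296).

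In SKO mice Lhpp was the 1 gene of the 8 called in non-tumour liver over the 4 stages, where 22.9% of all genes were called (0.41 ± 0.14, adjusted p = 0.0266). It was also the 1 gene called at 1 month, where 16.1% of all genes were called. Of 25 further pericentral target genes 4 were called higher and 5 lower over the 4 stages (median −0.021). At 1 month 7 of the 25 were called higher and 1 lower (median 0.424). At that age Lhpp had 410, 472, 492.5 and 282 normalised reads in SKO livers, against 204, 191, 204 and 161 in WT livers, and the groups did not overlap (0.998 ± 0.28, adjusted p = 0.00916). The call over the 4 stages was lost without SKO 3-month replicate 1, SKO 8-month replicate 4 or WT 3-month replicate 1 (adjusted p 0.0523 to 0.0668), and without WT 8-month replicate 4 Lect2 was called too (−0.30, adjusted p = 0.0435).

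At 3 months Lhpp had 722, 367, 551 and 514 normalised reads in SKO livers, against 204, 231, 426 and 376 in WT livers. Here 0 of the 8 were called (background 5.19%, 1 at an unadjusted p below 0.05), with Lhpp at 0.77 ± 0.28 (adjusted p = 0.0957), or 0.93 (adjusted p = 0.0402) without SKO replicate 2, the library with Ptpn11 at the WT level. At 5 months (background 6.02%), in 8-month non-tumour liver (5.03%) and in tumours (1.72%) 0 of the 8 were called, with 3, 1 and 0 genes at an unadjusted p below 0.05. At 5 months Lect2 stood at −0.69 ± 0.23 (adjusted p = 0.055) and Rgn at −0.71 ± 0.24 (adjusted p = 0.0622). Lect2 was called at 5 months without SKO replicate 2 (−0.79, adjusted p = 0.0469), and at 8 months without WT replicate 4 (−0.78, adjusted p = 0.0414). The interaction with stage (5.68%) and the difference of the tumour effect (0.0308%) called 0, with 3 and 1 genes at an unadjusted p below 0.05, and limma-voom called 0 in these comparisons. Without SKO 8-month replicate 4 the interaction called Lhpp (F = 6.40, adjusted p = 0.0201).

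Tbx3 lies on the same chromosome as Ptpn11, 1.45 Mb from it (Tbx3 at chr5:119670669-119684724 and Ptpn11 at chr5:121130533-121191397, GRCm38), and its difference in SKO non-tumour liver was −0.01 ± 0.13. In the SKO livers 12 of 12 macrophage markers were higher and 7 of 9 hepatocyte markers lower over the 4 stages. The summed macrophage markers were 2765 to 9156 normalised reads in 16 SKO non-tumour libraries, against 2206 to 8150 in 16 WT libraries, and the hepatocyte markers 528500 to 1205000 in SKO, against 622400 to 1382000 in WT. Their part in the Lhpp difference was not tested.

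In MKO mice 0 of the 8 genes were called against WT in any comparison. The backgrounds were 2.71% over the 4 stages, 0.185% at 1 month, 0.0231% at 3 months, 0.0463% at 5 months, 5.74% in 8-month non-tumour liver and 4.03% in tumours. The interaction with stage called 0.339% and the difference of the tumour effect 0.131% of all genes. At an unadjusted p below 0.05 there were 0, 1, 0, 0, 2, 2, 1 and 0 genes in these 8 comparisons in the same order, and limma-voom called 0 in each. At 3 months the median log2 difference of the 8 genes was 0.425, against 0.003 over all genes. The libraries did not overlap for 5 of the 8 at that stage, and for 16.1% of all genes. Lhpp had 354, 369 and 361 normalised reads in 1-month MKO livers, against 146.5, 179 and 169 in WT livers. The libraries did not overlap, as for 17.7% of all genes, and the difference of 1.02 ± 0.47 was not called (adjusted p = 0.555).

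At 8 months Tbx3 had 239, 126 and 126 normalised reads in MKO non-tumour liver, against 568.5, 382 and 220 in WT non-tumour liver. MKO replicate 1 overlapped WT replicate 3, and the difference of −1.09 ± 0.47 was not called (adjusted p = 0.152). Same-numbered libraries of these 2 groups deviated together, although the labels state no pairing of MKO with WT libraries. With the replicate number as a block in a fit of these groups alone, chosen after the data were seen, Tbx3 was called (adjusted p = 0.0404). In tumours, leaving out MKO replicate 3 gave 3 calls, all lower in MKO, namely Tbx3 (−1.63, adjusted p = 0.0427), Lgr5 (−1.15, adjusted p = 0.0417) and Rgn (−1.72, adjusted p = 0.0228). Leaving out WT replicate 3 gave 2, Tbx3 and Lgr5.

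The difference of the tumour effect between BKO and WT mice called 0 of the 8 genes (background 0.0308%, 0 at an unadjusted p below 0.05, 0 with limma-voom). Lhpp was at 1.27 ± 0.67 (adjusted p = 0.727) and Lect2 at 1.09 ± 0.74 (adjusted p = 0.838).

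With age in WT mice, 1 of the 8 genes differed between 8-month non-tumour liver and 1-month liver in sequencing group 1, where 7% of all genes were called. Notum had 33.5, 16.1, 38.1 and 28.6 normalised reads at 8 months, against 97.4, 59.7, 86.8 and 75.6 at 1 month, without overlap (−0.99 ± 0.20, adjusted p = 0.00107). In sequencing group 2, 0 of the 8 were called (background 1.72%, 1 at an unadjusted p below 0.05, 0 with limma-voom). Notum there had 20.4, 42.2 and 51.3 at 8 months, against 38.6, 52.9 and 47.3 at 1 month, with overlap (−0.22 ± 0.23, adjusted p = 0.695). The 2 sequencing groups were not tested against each other.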

How the data were processed

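RNA of 105 liver libraries from mice was prepared by MAPS, which counts polyadenylated 3′ ends, and sequenced on an Illumina HiSeq2000, per the labels. Reads were aligned to GRCm38 and counted with STAR 2.7.10a, HTSeq 2.0.2 and DESeq2 1.32.0, per the submitters' processing notes, which give no role for each. The authors deposited variance-stabilised log2 values, although their table is named for other scales. The values themselves fixed this, since 3.8289 was the lowest value of every library and stood for 0 reads, and reversing the transform turned 100.0% of values under 200 reads into whole reads (tolerance 0.05). These recovered, normalised reads give the levels, and the deposited values were tested. Intervals of reads would cover counting error only. The errors given are standard errors of the fitted differences, with a variance for each gene shared by all groups of a sequencing group. The lowest chi-square per gene over 5460 pairs of libraries was 4.924, so no library repeats another.

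Groups were taken from the labels. The tests used limma 3.58.1 (R 4.3.3) on each sequencing group separately, with a mean for every group and variances moderated with a trend on the mean. P-values were Benjamini-Hochberg adjusted over 12966 genes per comparison, 40 comparisons in all, and the fit was tested on simulated data. The alternatives were a filter at a mean of 5, quantile normalization, only the groups compared, a replicate block, no trend, library weights, limma-voom on the recovered reads and leaving out each library. A block in a fit of only 2 groups was added after the data were seen. It was used where every same-numbered pair of libraries correlated above 0.1, in BKO tumour and non-tumour liver (0.248 to 0.392) and in 8-month MKO and WT non-tumour liver (0.153 to 0.35).

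The members, lists and tests were chosen with earlier results of these data known. Named genes were the 8 members, the 3 genes nearest to each member with a root mean square of 0.5 or more, up to 3 called genes per list in BKO and up to 2 elsewhere, and the targeted genes. Counts of markers are calls in the same fit, and gene positions are from GENCODE vM21.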

Additional observations from a re-analysis of the deposited data

Results flagged for a closer look

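The tumour effect, tumour minus non-tumour liver at 8 months, differed between IKO and WT mice for Lhpp by 2.15 and for Rgn by 1.49 on the log2 scale, by a test of the difference itself in limma (adjusted p = 0.00747 and 0.0441). As described above, leaving out a single library ended the Rgn call for most of the libraries, and the Lhpp call for none. The BKO difference of Lect2 changed with stage (F = 12.5, adjusted p = 0.0137).

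Among 120 sets of 4 libraries, each 1 gene in 1 group of sequencing group 1, 6 had a library far from the other 3. This used Dixon's test on the log2 scale. Chance alone gives about 1 in 20, so 6 is about the number that chance gives, and the 6 are listed as a description. The value is the gap to the nearest library over the range of the group. It was 0.954 for the highest Nkd1 in 3-month IKO livers (replicate 4) and 0.839 for the lowest Lgr5 in 5-month IKO livers (replicate 2). In 8-month IKO non-tumour liver it was 0.968 for the highest Lgr5 (replicate 3) and 0.832 for the lowest Nkd1 (replicate 1). It was 0.93 for the lowest Rgn in IKO tumours (replicate 2) and 0.857 for the lowest Notum in 3-month WT livers (replicate 2). Groups of 3 were not tested in this way.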

How the results depend on the processing

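Counts of called members under other settings are given where they moved by more than 1.5 times. Only the groups compared gave 1 (4 in the full fit) for IKO against WT tumours, 1 (2) for the IKO tumour effect, 2 (1) for SKO over the 4 stages, 2 (0) for SKO at 5 months and 2 (0) for the SKO interaction, 0 (5) for BKO at 5 months, 1 (0) each for MKO at 1 month, the MKO interaction and age in WT of sequencing group 2, and 0 (3), 1 (6) and 2 (6) for tumour against non-tumour liver in BKO, MKO and WT of sequencing group 2. Library weights gave 1 (0) for IKO at 1 month, 2 (1) for SKO over the 4 stages, 2 (0) and 1 (0) for SKO at 5 and 8 months, 3 (0) for the SKO interaction, 5 (3) for BKO at 8 months and 3 (1) for the BKO interaction. Quantile normalization and no trend each gave 1 (2) for the IKO tumour effect, and limma-voom gave 3 (7) for BKO at 3 months. The stricter filter and the replicate block in the full fit moved no count by that much, and the filter removed Axin2.

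Leaving out 1 library gave 2 to 5 for IKO against WT tumours, 1 to 2 for the IKO tumour effect, 0 to 2 for SKO over the 4 stages, 0 to 1 each for SKO at 3, 5 and 8 months, the SKO interaction and BKO tumours, 2 to 5 for BKO at 5 months, 0 to 3 for MKO tumours, and 0 to 3, 2 to 6 and 2 to 7 for tumour against non-tumour liver in BKO, MKO and WT of sequencing group 2. Signs turned for Rgn in MKO tumours (−1.72 to 0.008) and Lgr5 in WT tumours of sequencing group 2 (−0.98 to 0.0186), neither called. The replicate block in a fit of 2 groups gave 5 (3) for BKO tumours against non-tumour liver and 1 (0) for MKO against WT at 8 months. The block changed no other count by over 1.5 times, and the labels state no pairing. The causes were not tested. With 3 to 4 libraries a group and few reads for Axin2, a miss does not show equal levels.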
